A study of Homo sapiens with 8 samples.

Results

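Luminal and epithelial identity genes are the genes by which a breast epithelial cell of the hormone-responsive, luminal kind is recognised. The 10 genes examined here, of 20136 protein-coding genes annotated, are ESR1, PGR, GREB1, TFF1, GATA3, FOXA1, XBP1, KRT19, GRHL2 and CDH1. They were listed by name for their role, with earlier results of these data known. Counts of them set beside all genes are therefore a description and no independent test. For each gene, HIF-1β peaks were collected that overlapped the gene body extended by 50 kb on each side, on GRCh37 (hg19). HIF-1β binding was measured by ChIP-seq, with 2 replicates each, in T47D (oestrogen receptor positive breast cancer), PC-3 (prostate cancer), A549 (lung cancer) and HCT-116 (colorectal carcinoma) cells. Every library came from cells of an established line that had spent 16 h in 0.5% oxygen, so no well-oxygenated cells enter any comparison, and each cancer type is represented by a single line. The lists hold peaks and no RNA, so whether these genes are expressed in any of the lines was not examined. Nothing in the labels says whether replicates are separate cultures, and p-values then measure the spread between these libraries only. A region with overlapping peaks of both replicates of a line is called a site.

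HIF-1β, encoded by ARNT, is the constant partner with which the oxygen-regulated HIF-α subunits bind DNA at a short core sequence, ACGTG or GCGTG, and it also partners other proteins such as the aryl hydrocarbon receptor. Luminal breast cells are specified by the oestrogen receptor (ESR1) together with FOXA1, which opens chromatin for it, and GATA3. PGR, GREB1 and TFF1 are classical oestrogen-induced genes, XBP1 serves both the unfolded protein response and the luminal programme, and KRT19, GRHL2 and CDH1 mark epithelial cells of many tissues.

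In T47D cells, 8 of the 10 genes had a site in their window, against 3 in HCT-116, 2 in A549 and 1 in PC-3 cells. Over all protein-coding genes, the share with a site in a window built the same way was 22% in T47D, 19.7% in HCT-116, 8.65% in A549 and 10.1% in PC-3 cells. The 2 genes without a T47D site were PGR and CDH1. A site in T47D and in no other line was found for ESR1, GATA3, FOXA1, XBP1 and GRHL2, which is 5 of 10 genes against 8.06% of all genes. At GATA3, FOXA1 and XBP1, the other 6 libraries held no peak at all in the window, a pattern (T47D site, no peak elsewhere) found at 3.19% of all genes. Binding near GREB1, TFF1 and KRT19 was therefore not limited to T47D cells, although most of their T47D sites met no site of another line. Windows of the 10 genes were somewhat longer than usual, with a median of 164 kb against 127 kb over all genes, and ran from 104 kb for TFF1 to 573 kb for ESR1.

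**Figure D1:**
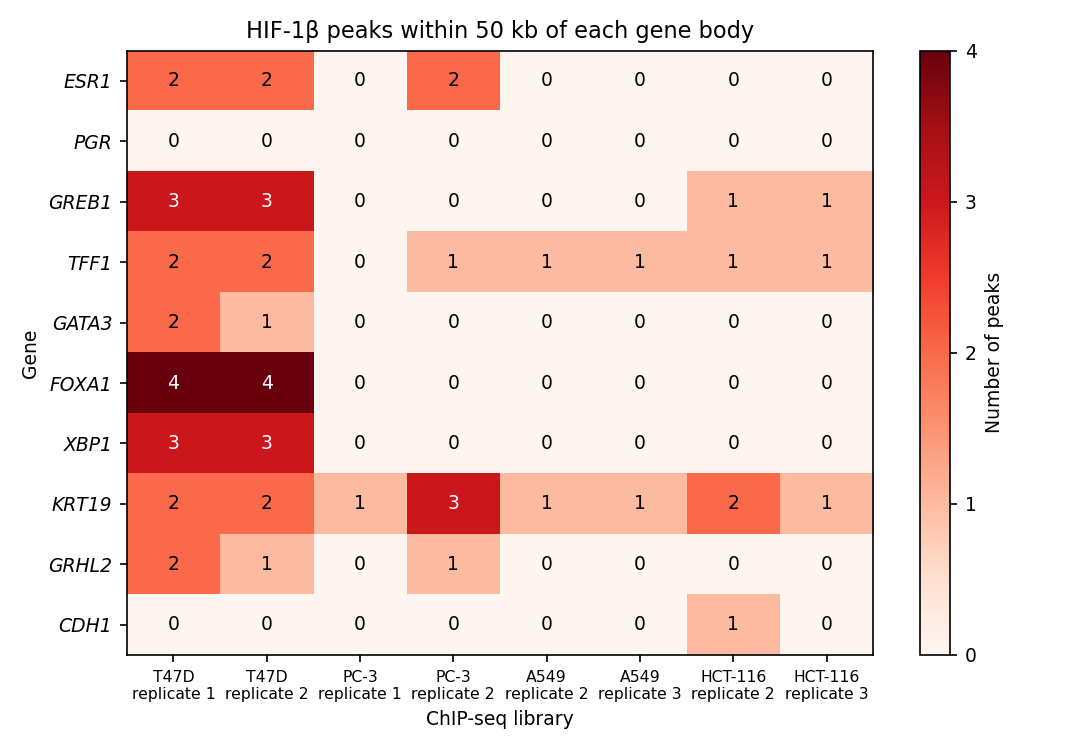
Number of HIF-1β peaks within 50 kb of the body of each gene (rows) in each of the 8 ChIP-seq libraries (columns), with the number printed in each cell and darker red for more peaks. FOXA1 has 4 peaks in both T47D replicates and none elsewhere, whereas KRT19 has at least 1 peak in every library and PGR has none.

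Counted by library, 8 genes had a peak in each T47D replicate, 1 and 4 in PC-3 replicates 1 and 2, 2 in each A549 replicate, and 4 and 3 in HCT-116 replicates 2 and 3. Of all protein-coding genes, 29.8% and 28.8% had a peak in the T47D replicates, 10.6% and 23.8% in PC-3, 13.5% and 10.2% in A549, and 36.5% and 20.9% in HCT-116 cells. HCT-116 replicate 2 thus reached more genes than either T47D library. T47D replicate 1 had 20 peaks in the windows, 0.653% of its 3061 peaks (95% exact binomial interval 0.4 to 1.01%), and replicate 2 had 18, or 0.619% (0.367 to 0.976%). The other libraries had between 1 and 7 peaks there, from 0.096% in PC-3 replicate 1 to 0.242% in PC-3 replicate 2 (0.0974 to 0.498%). The intervals cover counting error only. The lists differ in length, from 1042 peaks in PC-3 replicate 1 to 3790 in HCT-116 replicate 2. With the 1042 highest-scoring peaks of every library, a setting added after the data were seen, 5 genes had a site in T47D cells (9.3% of all genes) and GREB1, FOXA1 and XBP1 had one in T47D only (2.94% of all genes).

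For each gene, the number of peaks in T47D libraries was compared with that in the other 6 over all 28 ways to choose 2 of 8 libraries. The smallest p this allows is 0.036, and GREB1, TFF1, GATA3, FOXA1 and XBP1 had that value (exact permutation test, two-sided). ESR1 had p = 0.11, GRHL2 p = 0.071 and KRT19 p = 0.57 in the same exact test. More peaks in T47D at p under 0.05 were found at 4.82% of all genes. After Benjamini-Hochberg adjustment over all 20136 genes, the adjusted p of those 5 genes was 0.7 and no gene passed, with 1027 genes under 0.05 before adjustment by this exact permutation test. None could have passed, because 46.1% of genes had no peak in any library and the smallest p is 0.036, so the adjusted values decide nothing. Because both T47D libraries come from the same line, the test does not separate breast cells from this line. It also treats the 8 libraries as independent, although they are 2 replicates of each of 4 lines. Its p-values therefore do not measure the spread between lines.

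Among receptors, ESR1, which encodes oestrogen receptor α, had a T47D site at chr6:151954307-151955448, in intergenic DNA and 22.9 kb before the most upstream annotated start of the gene. Its score was 151 in replicate 1, where 21.7% of peaks scored higher, and 87.1 in replicate 2, where 51% did. No peak of another line overlapped it. The T47D replicates differed in their second peak of this window. Replicate 1 had a peak of score 58.4 in an intron, 2.3 kb past the upstream start, and replicate 2 had a peak of score 67.2 whose centre lay 173 bp before the start of the canonical transcript, 151 kb past the upstream start. PC-3 replicate 2 alone had peaks of 52 and 74 deep in introns, 302 and 398 kb from the upstream start. The T47D site upstream of ESR1 contained no copy of ACGTG or GCGTG on either strand, but it held 2 copies of the forkhead motif TGTTTAC or TGTTTGC, and its reference sequence is shown because a site at the receptor gene lacks the HIF core. Capitals mark the forkhead motif.
ESR1 site 22.9 kb before the start, chr6:151954796-151954922, plus strand: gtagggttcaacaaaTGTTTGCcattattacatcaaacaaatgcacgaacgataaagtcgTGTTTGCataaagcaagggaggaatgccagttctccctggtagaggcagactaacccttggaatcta
PGR, the progesterone receptor gene and a standard readout of oestrogen receptor activity, had no peak in any of the 8 libraries. The nearest T47D site lay 206 kb from its gene body.

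Among oestrogen-induced genes, GREB1, a growth-related cofactor of the oestrogen receptor, had 3 T47D sites, with 3 peaks in each replicate. The site chr2:11638171-11639520, in an intron 16.4 kb past the upstream start, was the strongest, with scores of 419 and 299 and 5.06% and 10.9% of peaks scoring higher. The site chr2:11679063-11680369, 57.2 kb past the upstream start and 5.54 kb past the start of the canonical transcript, had scores of 192 and 147 (15.7% and 26.3% of peaks higher). Its peaks were centred 247 and 263 bp from another annotated transcript start in replicates 1 and 2. Neither of these 2 sites was overlapped by a peak of PC-3, A549 or HCT-116 cells. The third site, chr2:11622264-11624081, covered the upstream start itself and was shared with HCT-116 cells. Its scores of 65.3 and 152 in T47D replicates 1 and 2 and of 92.2 and 56.3 in HCT-116 replicates 2 and 3 did not rank alike between replicates (69% and 25.2% of peaks higher in T47D, 52.2% and 87.7% in HCT-116). Stretches of the first 2 sites, those found in T47D cells only, are shown because they differ in their HIF core, with 60 bases on each side of the copy nearest the site's centre and every ACGTG or GCGTG, on either strand, in capitals.
GREB1 site 16.4 kb from the start, chr2:11638662-11638786, plus strand: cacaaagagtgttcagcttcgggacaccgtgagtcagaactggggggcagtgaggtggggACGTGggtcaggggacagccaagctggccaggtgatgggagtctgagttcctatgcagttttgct
GREB1 site 57.2 kb from the start, chr2:11679543-11679667, plus strand: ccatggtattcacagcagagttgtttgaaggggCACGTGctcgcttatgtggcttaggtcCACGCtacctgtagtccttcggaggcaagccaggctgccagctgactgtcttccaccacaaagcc
The intronic site holds a single ACGTG in that stretch, 4 bp from the centre, and the other holds a CACGTG, which reads ACGTG on both strands.

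TFF1, a secreted trefoil peptide induced by oestrogen, had no site at or near its own start. Its T47D site, chr21:43734842-43736094, lay 46.3 kb from the gene body and covered the start of the related trefoil gene TFF3, with scores of 173 and 136 (18.1% and 29.7% of peaks higher) and no peak of another line. The A549 and HCT-116 site in the window, at chr21:43834502-43835882 in HCT-116 cells, lay on the opposite side of TFF1 in an intron of UBASH3A, 47.9 kb from the gene body. It scored 274 and 135 in HCT-116 cells and 125 and 70.5 in A549 cells, PC-3 replicate 2 had a peak of 58.4 there, and T47D cells had none. Single T47D peaks lay closer to TFF1, 10.1 kb before the start in replicate 1 (score 51.6) and 30.2 kb beyond it and nearest to TFF2 in replicate 2 (score 99.5). TFF1 thus enters the count of genes with a site in 3 lines through regions next to other genes.

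Among transcription factors, GATA3 had a T47D site of 2868 bp, chr10:8091634-8094501, 5.73 kb past its upstream start and 3.58 kb before the start of the canonical transcript. Only 5.38% of T47D sites were wider, yet the scores were low, 79.2 and 59.6, with 53.5% and 80.3% of peaks scoring higher. The site overlaps exons of the antisense RNA gene GATA3-AS1. It also covers the start of a long noncoding RNA gene that the annotation names by its identifier alone. The site therefore cannot be assigned to any of these genes by position. Replicate 1 had a further peak of 66.3, at 39.6 kb from the upstream start, which replicate 2 lacked.

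FOXA1, the pioneer factor of luminal chromatin, had the largest number of peaks of the 10 genes in T47D libraries, 4 in each replicate, of which 3 coincided. The site chr14:38052275-38055137 lay in intergenic DNA 11.6 kb beyond the start and 3.62 kb beyond the gene's end, was 2863 bp wide and scored 112 and 133 (33.1% and 30.3% of peaks higher). The other 2 sites, chr14:38015611-38016820 and chr14:38013303-38014290, lay 49 and 51.5 kb beyond the start, within MIPOL1, the neighbouring gene. Their scores were 112 and 91.4 for the nearer and 62.1 and 60 for the farther. The coding start nearest to each of these 3 sites was that of TTC6, which lies beside the FOXA1 start. At the FOXA1 start, replicate 1 had a peak of 50.7, at the foot of its list with 98% of peaks higher, and replicate 2 had a peak of 90.8 centred 3.82 kb into the gene. The 2 peaks did not overlap and so made no site, and the first also covered the start of TTC6.
FOXA1 site 11.6 kb beyond the start, chr14:38053949-38054073, minus strand: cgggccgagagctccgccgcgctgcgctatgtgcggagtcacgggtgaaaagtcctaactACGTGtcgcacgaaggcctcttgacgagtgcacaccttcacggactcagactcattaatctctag
The FOXA1 stretch shows the HIF core nearest the centre of the 11.6 kb site, in capitals, which is 349 bp away, since this site holds no core in its central 300 bp.

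XBP1, a transcription factor of secretory and luminal cells, had 3 T47D sites upstream of its start, in both replicates each time, and no peak in any other library. The middle site, chr22:29214081-29216393, 18.7 kb before the start, scored 358 and 222 (6.47% and 15.2% of peaks higher). On its sides lay chr22:29209230-29210477, 13.3 kb before the start with scores of 121 and 151, and chr22:29218683-29219705, 22.6 kb before the start with scores of 95.1 and 93.2. All 3 fell within a long noncoding RNA gene that starts next to XBP1 on the opposite strand, named in the annotation by its identifier alone.

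GRHL2, a grainyhead factor that maintains epithelial junction genes, had a T47D site at chr8:102478477-102479866, 25.5 kb before its start, with scores of 107 and 83.4 (35.8% and 53.6% of peaks higher). Like the site upstream of ESR1, it contained no ACGTG or GCGTG. A T47D peak of 60 in replicate 1, 18.1 kb before the start, and a PC-3 peak of 62 in replicate 2, 115 kb past it, had no counterpart in the other replicate.

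**Figure D2:**
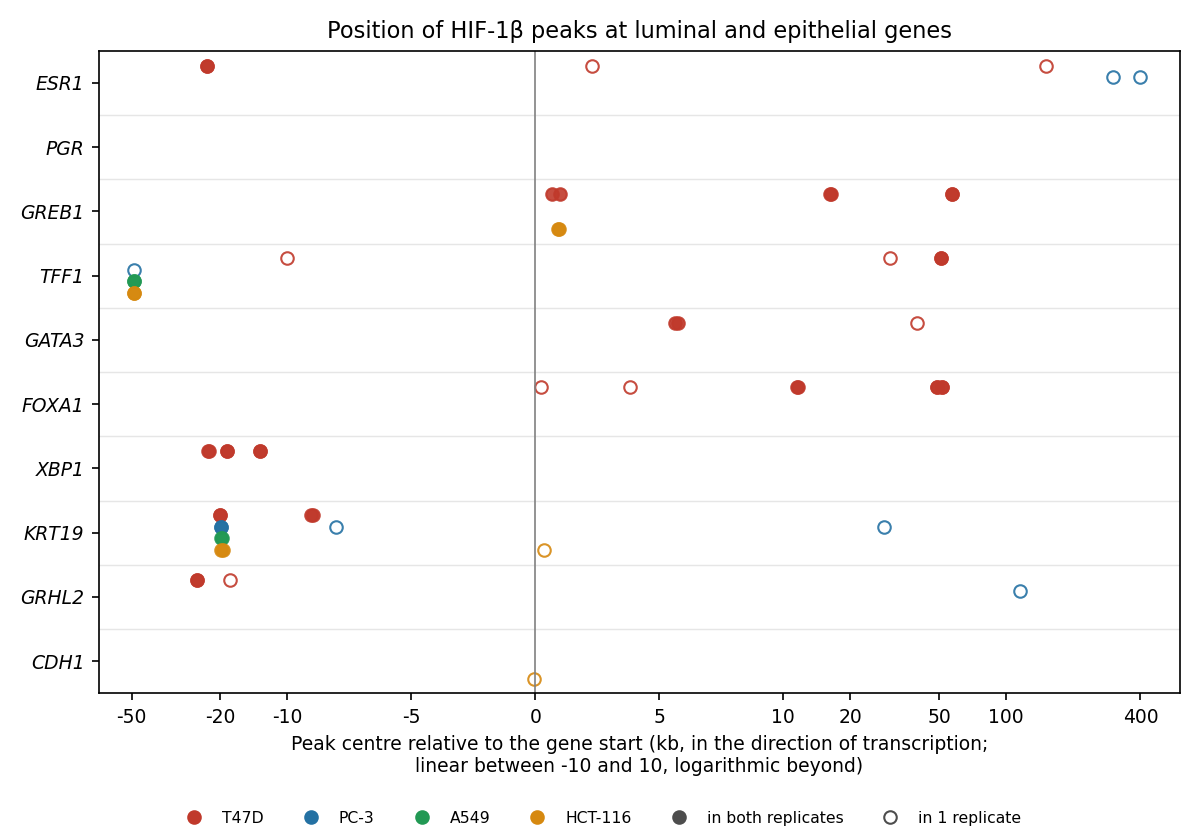
Centre of each HIF-1β peak relative to the most upstream annotated start of each gene, in kb in the direction of transcription (linear between -10 and 10 kb and logarithmic beyond), with colours for the cell lines, filled circles for peaks that overlap a peak of the other replicate and open circles for peaks of 1 replicate. The filled T47D circles lie mostly away from the gene starts, at -22.9 kb for ESR1 and between -22.6 and -13.2 kb for XBP1, and the site at -20.1 kb of KRT19 is filled in all 4 lines.

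Among structural genes, KRT19, a keratin of simple epithelia, had the strongest binding of the 10 genes. The T47D site chr17:39690884-39696237, in intergenic DNA 9 kb before the start, scored 3078 in replicate 1, where 3 peaks scored higher, and 3100 in replicate 2, where 1 peak scored higher. The value 3100 was shared by 5 peaks of replicate 2, so their order cannot be read. It was 5354 bp wide, and 0.678% of T47D sites were wider. The only peak of another line that overlapped it was in PC-3 replicate 2, 8.02 kb before the start, with a score of 185 (19.9% of peaks higher). A second site, 20.1 kb before the start, was found in all 4 lines and in all 8 libraries. It scored 297 and 310 in T47D, 54.3 and 101 in PC-3, 132 and 97.2 in A549, and 126 and 58.6 in HCT-116 cells. In T47D replicates 8.59% and 10.4% of peaks scored higher than this site, and in the other lines between 36.1% and 89.7% did. Each rank describes its own library, since scores were not put on one scale, and was not tested. At the KRT19 start itself, HCT-116 replicate 2 alone had a peak, of score 77.1, and PC-3 replicate 2 alone had a peak of 80.5 beyond the gene, 28.2 kb past the start and nearest to KRT13. The sequences of both upstream sites are shown with the HIF core nearest to their centres in capitals, since the stronger site has its nearest core 923 bp from the centre and the shared site 104 bp from it.
KRT19 site 9 kb before the start, chr17:39692571-39692695, minus strand: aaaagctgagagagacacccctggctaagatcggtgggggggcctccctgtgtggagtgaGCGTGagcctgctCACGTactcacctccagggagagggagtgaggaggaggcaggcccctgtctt
KRT19 site 20.1 kb before the start, chr17:39704495-39704619, minus strand: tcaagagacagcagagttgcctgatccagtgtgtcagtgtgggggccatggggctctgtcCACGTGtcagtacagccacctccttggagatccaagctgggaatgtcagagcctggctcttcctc
The broad T47D site held 7 copies of the core in all its length, 4 of ACGTG and 3 of GCGTG, and the shared site also held 7.

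CDH1, which encodes E-cadherin, the adhesion molecule of epithelial junctions, had no peak in T47D, PC-3 or A549 cells. HCT-116 replicate 2 had a peak of score 72.1 centred 36 bp before its start, with 68.7% of peaks higher, and replicate 3 had none. The nearest T47D site lay 499 kb from the gene body. Of all 10 genes, the site just outside the limit of 50 kb was a further T47D site 53.2 kb from the body of GRHL2. Just inside the limit were the sites near UBASH3A, 48 and 47.9 kb from TFF1.

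The T47D sites of these windows number 15, and 13 of them (86.7%) met no site of another line and 12 (80%) met no peak of the other 6 libraries. The shares among all 2065 T47D sites were 56.8% and 38.8%. Among the 1043 T47D sites whose centre lay over 2 kb from the most upstream start of any protein-coding gene, they were 66.8% and 55.3%. Of the 15, only 2 were centred within 2 kb of such a start (13.3%, against 49.3% of all T47D sites), those at the upstream start of GREB1 and at TFF3. Other transcript starts were not counted. The peaks of the GREB1 site 57.2 kb past the upstream start were centred 247 and 263 bp from another annotated start of that gene. With sites far from upstream starts set apart, 11 of 13 (84.6%) met no peak elsewhere. Their scores were not unusual for the line, with the share of peaks scoring higher, averaged over the replicates, at a median of 31.7% against 39% for all T47D sites, and a range of 0.0662% at KRT19 to 76.9% at FOXA1.

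**Figure D3:**
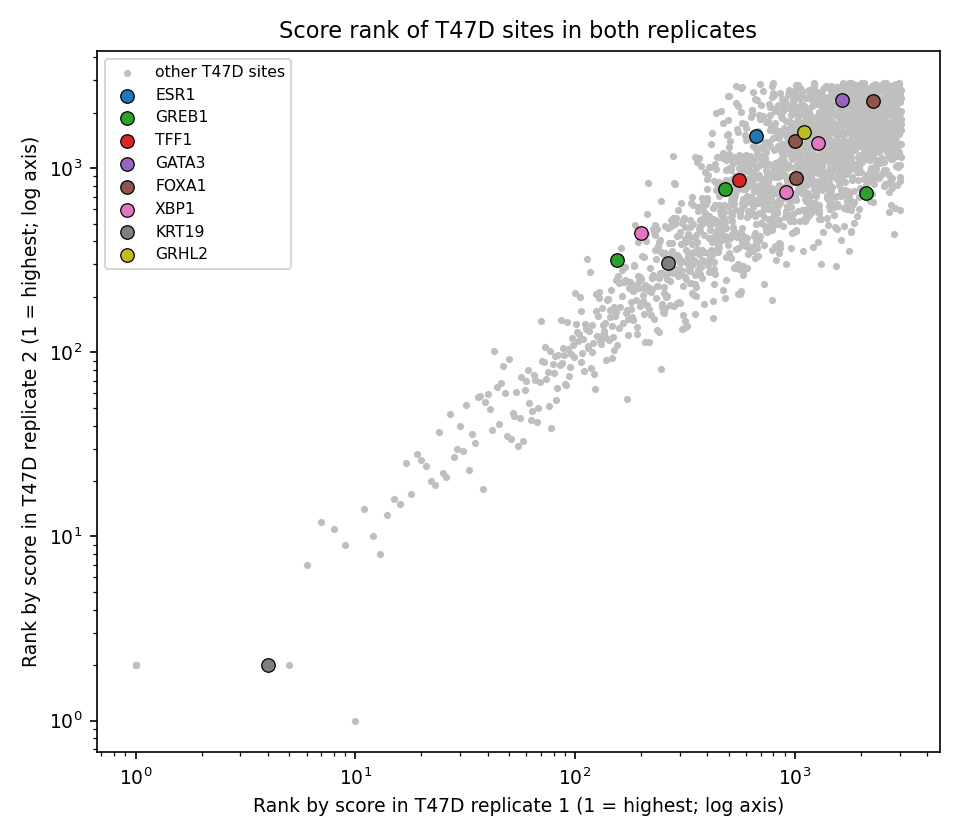
Rank by score (1 is the highest, log axes) of each T47D site in replicate 1 (x axis) and replicate 2 (y axis), with grey points for sites outside the 10 windows and coloured points for the sites of each gene. The KRT19 site at ranks 4 and 2 (the latter tied) stands near the top of both lists, and the GATA3 site, at ranks 1638 and 2337, lies among the lower-scoring sites.

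The HIF core occurred in the central 300 bp of 9 of the 15 sites (60%), set against 79.6% of all T47D sites, 65.3% of T47D sites away from coding starts that met no site of another line, and 32.1% of stretches of the same length 5 kb away. All 9 had ACGTG (60%), against 52.9% of all T47D sites and 43.5% of those away from coding starts that met no site of another line. GCGTG, which can share an end base with ACGTG, was in 3 of 15 (20%), against 54.5% and 36.6% of the same sets. Over the whole length of the sites, 13 of 15 held a core (86.7%, against 96.3% of all T47D sites), the exceptions being those of ESR1 and GRHL2. The forkhead motif TGTTTAC or TGTTTGC was in the central 300 bp of 5 sites (33.3%), compared with 10.4% of all T47D sites and 19.4% of T47D sites away from coding starts that met no site of another line. The GATA motif AGATAA was in 1 site (6.67%), against 7.47% and 14.8% of those sets. No site had the grainyhead motif AACCGGTT or the oestrogen response element GGTCANNNTGACC in that stretch, in which 0.339% and 0.582% of all T47D sites had them. Both strands were searched, and these counts describe letters in the reference, with no test.

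Genes with related roles were read from further lists. Of 45 other luminal and epithelial genes, 23 (51.1%) had a site in T47D, 14 (31.1%) in HCT-116, 10 (22.2%) in A549 and 8 (17.8%) in PC-3 cells, and 10 (22.2%) had one in T47D only. The shares of all protein-coding genes were 22%, 19.7%, 8.65% and 10.1% in the same order, and 8.06% in T47D only. A T47D site with no peak in the other 6 libraries was found for 5 of the 45 (11.1%, against 3.19% of all genes). Of the genes with a site in T47D only, the 5 with the highest-ranking sites were DSP, ESRP2, EHF, TFF3 and JUP. The window of ESRP2 also held 2 peaks of HCT-116 replicate 2. That of EHF held 1 peak each of PC-3 replicate 2, A549 replicate 2 and HCT-116 replicate 2. The TFF3 site is the one already counted for TFF1. DSP, the desmosomal plaque gene, had its site 20.3 kb into the gene with scores of 370 and 593 (6.24% and 4.3% of T47D peaks higher). EHF, an epithelial ETS factor, had 4 T47D sites, the strongest of them at chr11:34652420-34654608 with scores of 148 and 236. ESRP2, an epithelial splicing regulator, had a site of 276 and 226 near its start, and JUP, the gene of plakoglobin, had 2 sites, the stronger of 143 and 110. Of 25 genes of basal and mesenchymal cells, 5 (20%) had a site in T47D, near the share of all genes, and 7 (28%) in HCT-116 cells. PC-3 and A549 cells had 5 each (20%), above their shares of all genes, 10.1% and 8.65%. A site in T47D only was found for 2 (8%), also near the share of all genes. These were in the windows of KRT17 (167 and 117) and FN1 (98 and 74.4), and the coding starts nearest to them were of EIF1 and ATIC. Another of the 5 basal and mesenchymal genes with a T47D site, KRT14, shares with KRT19 both sites upstream of KRT19. All 26 genes of a list of established HIF targets had a T47D site, and 23 had a site in all 4 lines. A site in all 4 lines was found for 754 of all 20136 protein-coding genes and for 1 of the 10 luminal and epithelial identity genes. The best site of each such target had a median of 1.67% of T47D peaks scoring higher, against 27.8% for the 8 luminal and epithelial genes and 34.7% for the 4424 protein-coding genes that had a T47D site.

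**Figure D4:**
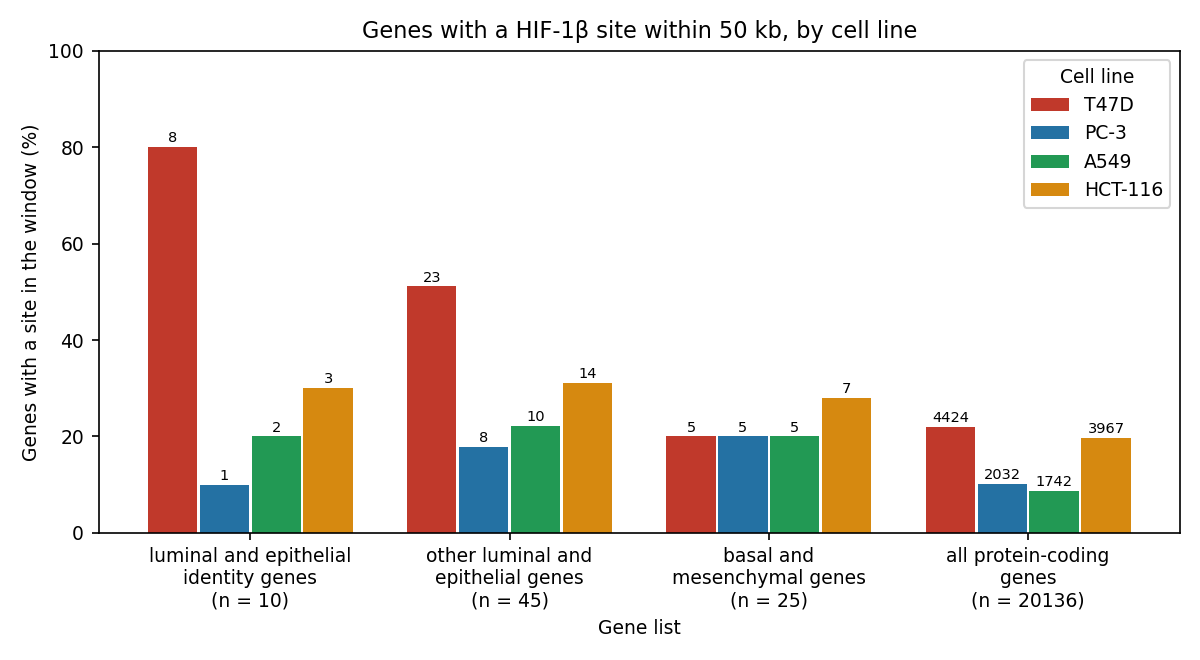
Share of genes (%, bars from 0, with the number of genes printed above each bar) that had a HIF-1β site within 50 kb of the gene body, by gene list and cell line. T47D reaches 80% of the luminal and epithelial identity genes and 51.1% of other such genes, and the other lines reach 17.8% to 31.1% of the latter. For basal and mesenchymal genes the 4 lines lie between 20% and 28%. The shares of all protein-coding genes differ by line, at 22% in T47D, 19.7% in HCT-116, 10.1% in PC-3 and 8.65% in A549 cells.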

How the data were processed

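HIF-1β ChIP-seq was analysed in 8 libraries, 2 of each line. Per the labels, the submitters' processing notes name Trim Galore 0.3.3, BWA 0.7.5a-r405, SAMtools 0.1.19, bedtools 2.17.0, Picard 1.106 and MACS (version not given in the sources used here), on GRCh37 (hg19). The authors called peaks library by library, and the deposited lists give intervals, each with a score. No header explains the score. Its lowest value is close to 50 in every list, and it was read only as a rank within a library. A peak below that limit is not listed, and because no reads are in the lists the depth of each library is unknown. A missing peak therefore means that none was called. The methods of the study also name T-PIC, a second peak caller, and whether the lists were limited to peaks found by both is not given in the sources used here.

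Overlapping peaks of both replicates (at least 1 bp) were merged into sites. Windows were the gene span of GENCODE release 44, lifted to GRCh37, and 50 kb on each side. Distances run from peak centres to the most upstream annotated start, or to the canonical transcript where stated. Coding starts, also where sites are called away from them, are the most upstream annotated start of each protein-coding gene only. Motifs were counted in the central 300 bp of the stretch shared by the best peaks of both replicates, and a CACGTG counts on each strand. The test was an exact permutation test over libraries for each of 20136 protein-coding genes with Benjamini-Hochberg adjustment. In simulated lists, all 500 shared peaks were found. All 200 genes made with peaks in T47D only had unadjusted p under 0.05 in the exact permutation test. Their counts were fixed and give the smallest p by construction, so this checks the code and says nothing of power. Genes named were the 10 genes, the coding gene nearest each peak, and up to 5 genes of each further list with sites in T47D only, by rank. The genes and lists were chosen with earlier results of these data known, and motifs other than the HIF core were added later. Python 3.11.15, NumPy 2.4.6, SciPy 1.17.1, pysam 0.24.0, Matplotlib 3.10.9, bedtools 2.31.1 and samtools 1.23.1 were used. The stretches of other sites are not reported here.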

Additional observations from a re-analysis of the deposited data

How the results depend on the processing

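The number of genes with a T47D site was 8 and fell to 5 with the higher-scoring 50% of each list and to 4 with windows of 10 kb on each side. Under the same settings the counts were 1 and 1 in HCT-116, 1 and 0 in A549 and 0 and 0 in PC-3 cells. Among these alternatives, the share of all genes with a site was computed only for lists of 1042 peaks. The other counts of genes therefore have no background to be set against. An overlap of 50% of both peaks, or windows of 25 kb around the gene start, gave 1 gene in A549 cells. A peak of either replicate gave 4 genes in PC-3 cells and 3 genes with a site in T47D only. Genes with a site in T47D only numbered 3 with the higher-scoring 50% and with windows of 10 kb, and ranged from 3 to 5 without each replicate, the lowest without PC-3 replicate 1, when ESR1 and GRHL2 gain PC-3 peaks. Without PC-3 replicate 1 or 2 the PC-3 count was 4 or 1. The sum of T47D sites over the genes was 23 with a peak of either replicate and 6 with windows of 10 kb. The HIF core was in 5 of 15 sites (33.3%) in the central 200 bp, against 66.7% of all T47D sites. Without KRT19, a setting chosen after seeing the data, 1 gene was left in A549 and 0 in PC-3 cells. With 1042 peaks taken from the top of every list, also chosen after seeing the data, the counts were 5 in T47D (9.3% of all genes), 1 in HCT-116 (10.1%), 2 in A549 (6.62%) and 0 in PC-3 cells (7.93%), and GREB1, FOXA1 and XBP1 had a site in T47D only (2.94%).

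Genes with p under 0.05 in the exact permutation test of T47D against the other lines numbered 5 (1027 of all genes in either direction), and 3 when a peak was counted as present or absent (766), 3 with the higher-scoring 50% (673) and 3 with windows of 10 kb (634). With windows of 100 kb there were 6 (1283). With counts divided by the library's number of peaks there were 4 (1366), and TFF1 had p = 0.29 in the exact permutation test. With the replicate block, in which libraries are exchanged only within a replicate number, 8 arrangements remain, the smallest p is 0.12 and the number was 0 (0 of all genes). Without each replicate it ranged from 0 to 7, with 0 without either T47D replicate, where the smallest exact p is 0.14, and 7 without PC-3 replicate 2 (1156 of all genes), when ESR1 and GRHL2 join. No gene passed the adjusted threshold under any alternative, which says little, since the smallest exact p was never below 0.036. Replicate differences correlated across genes with a coefficient of 0.021 between T47D and PC-3 and 0.127 between A549 and HCT-116 cells. In the main test the replicate numbers were treated as names, and whether equal numbers mark a shared batch was not tested. The cause of the changes between settings was not tested.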

Other observations

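Some genes of the basal list showed the reverse pattern. They are named here after their values were seen, so their p-values describe and support nothing. Of the same 25 genes, KRT17 and FN1 had a site in T47D only, and 16 had no site in any line. CAV1 and CAV2, neighbouring caveolin genes whose windows share sites, had no peak in either T47D library and a site in each of the other lines. A site at -12.7 or -12.8 kb from the CAV1 start scored 98.2 and 291 in PC-3, 85.6 and 105 in A549 and 432 and 241 in HCT-116 cells. The window of CAV1 held 1 to 2 peaks in each of the 6 other libraries (exact permutation test, two-sided, p = 0.036, adjusted p = 0.7). Fewer peaks in T47D at p under 0.05 were found by this exact test at 57 of 20136 genes. EGFR, the growth factor receptor gene, had a site 167 kb into the gene in PC-3, A549 and HCT-116 cells, while of the T47D libraries replicate 2 alone had a peak in its window (exact permutation test, two-sided, p = 0.43).

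CA12, a carbonic anhydrase gene that is known both as an oestrogen-induced and as a HIF target gene, was reached in A549 cells (445 and 245) and HCT-116 cells (146 and 131) at 9.21 to 9.25 kb from its start. T47D replicate 2 and PC-3 replicate 2 had a peak in its window that the other replicate of the line lacked, so neither line had a site there. STC2, which like CA12 is a known HIF target on the list of other luminal and epithelial genes, had a site in T47D, PC-3, A549 and HCT-116 cells.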
